A study of Mus musculus with 5 samples.

Results

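The regions described here are the isolated H3K9me3 islands of untreated mouse embryonic stem cells (ESCs), stretches of enriched chromatin with no nearby counterpart in L-proline-treated cells. An autosomal H3K9me3 island of the ESC list was called isolated when no H3K9me3 island of the L-proline list lay within 10 kb of it and no H3K36me3 island of either condition overlapped it. The rule was met by 2081 of the 17697 autosomal ESC H3K9me3 islands (11.8%), out of 73415 islands in the 4 deposited lists. The study mapped H3K9me3 and H3K36me3 by chromatin immunoprecipitation with sequencing (ChIP-seq), and asked how these marks lie with and without added L-proline. L-proline-induced cells (PiCs) were wild-type TBV2 cells of the 129/SvP strain grown for 5 days at low density, without feeders on gelatin, with 500 µM L-proline. Control ESCs were the same line grown in the same way without L-proline. Both were kept in complete medium with leukemia inhibitory factor and without non-essential amino acids. There was 1 library for each mark in each condition, from bulk cells of 1 line, so no comparison between conditions had a replicate and no test was possible. In bulk chromatin, fewer cells that carry a mark and less of the mark in each cell cannot be told apart.

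H3K9me3, trimethylation of lysine 9 on histone H3, is a mark of silenced chromatin. In mouse ESCs it is deposited over endogenous retroviruses and other repeats by SETDB1, which zinc finger proteins of the KRAB family recruit through TRIM28, and over pericentromeric repeats by SUV39H1 and SUV39H2. H3K36me3 is placed over the bodies of transcribed genes by SETD2, which travels with elongating RNA polymerase II. Isolated islands as defined here are thus sites listed for the silencing mark in untreated cells that lie outside the listed gene-body mark.

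The isolated islands were chosen by the measured positions of islands in all 4 lists, so every value tied to those positions is given as a description, with no test. Among the autosomal ESC H3K9me3 islands, 13965 (78.9%) overlapped a PiC H3K9me3 island and 687 (3.88%) had one within 10 kb without overlap. The remaining 3045 (17.2%) had none within 10 kb. Of these, 964 were set aside because they overlapped H3K36me3. It was called in both conditions for 703, in PiCs alone for 231 and in ESCs alone for 30. The autosomal PiC H3K36me3 list is the longer, with 16363 islands against 11971 in ESCs. No H3K36me3 overlap was found for 2081 of the 3045. The same held for 12757 of the 13965 islands that overlapped a PiC H3K9me3 island, and for 604 of the 687 near one. Applied in the mirrored direction, the rule was met by 7553 of the 24422 autosomal PiC H3K9me3 islands (30.9%), and 32.5% had no ESC island within 10 kb. The number of isolated ESC islands depended on the lists compared. It was 3456 (19.5%) with the PiC list reduced to the length of the ESC list by tags, and 479 (5.34%) when the ESC list was limited to its 50% with most tags. The ESC and PiC lists were not scaled to each other, and the smallest number of tags in a listed island was 23 in PiCs and 18 in ESCs. A missing PiC island therefore means that none was listed there, not that no tags were present.

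Isolated islands carried few sequencing tags for their size. Their median density was 17.7 tags per kb (95% interval of the median 17.3 to 18), against 26.5 (26.2 to 26.7) in the other 15616 autosomal ESC islands. The total per island ran between 18 and 199 tags with a median of 45 in isolated islands, and between 18 and 12657 with a median of 62 in the others. Median widths were equal, at 2.6 kb in isolated islands and 2.6 kb in the others. Isolated islands covered 6.02 Mb. They made up 11.3% of the bases and 7.15% of the tags of the autosomal ESC list. On all 19 autosomes the median tag density of isolated islands was below that of the others, with chromosome medians of 15.4 to 23.0 against 24.7 to 29.4 tags per kb. The 964 islands set aside for H3K36me3 overlap were sparser still, at 15.0 tags per kb, and wider, at 3.6 kb. The PiC H3K9me3 islands held 3514489 tags in sum and the ESC ones 1511058. The part that this difference in tags plays in which islands were listed was not tested. Intervals given here cover counting error over islands only, and islands of 1 library are not replicates.

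Ranking the autosomal ESC list by tag density placed the isolated islands mainly at its sparse end. Of the 1769 islands in the sparsest 10% of the list, up to 15.4 tags per kb, 734 were isolated (41.5%, exact binomial interval 39.2 to 43.8). In the next 10% the share was 22.8%, and in the densest 10%, from 45 tags per kb, 73 of 1770 were isolated (4.12%, 3.25 to 5.16). By total tags the share fell to 0.621% in the islands with the most tags (11 of 1770), against 20.5% in those with the fewest. These shares stand beside 11.8% over the whole autosomal list.

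The gap in tag density between isolated and other islands was small among narrow islands and large among wide ones. The lowest density listed also fell with width, from 16.7 tags per kb under 2 kb to 9.19 at 6 kb and over. The part that this floor plays in the gap was not tested. Under 2 kb, the median density was 29 tags per kb in 650 isolated islands and 32.8 in 4899 others, a ratio of 0.885. Between 2 and 3 kb the medians were 17.9 and 24.5 (ratio 0.728), and between 3 and 4 kb they were 14.7 and 22.8 (0.645). From 4 to 6 kb the isolated islands had 13.4 tags per kb and the others 23.5 (0.571). At 6 kb and over, 112 isolated islands had 13.2 tags per kb against 26.4 in 1194 others (0.498), and none of the 112 exceeded the median of the others. In that widest class 58.0% of the isolated islands fell in the sparsest 10% of ESC islands of the class, where the list minimum was 9.19 tags per kb. PiC islands isolated by the mirrored rule had ratios to the other PiC islands of 0.927 in the narrowest class and 0.814 in the widest.

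**Figure D1:**
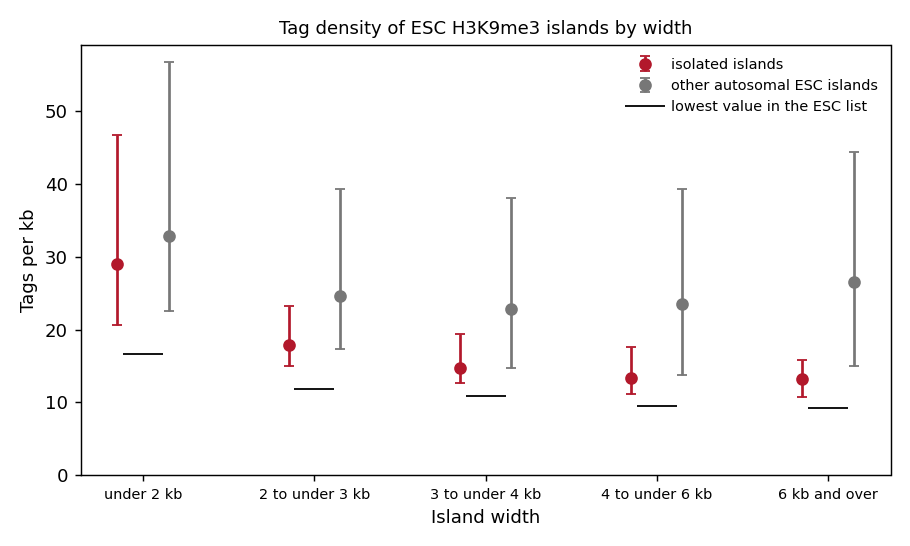
Tags per kb (vertical axis) of isolated and other autosomal ESC H3K9me3 islands in 5 width classes; points are medians, bars run from the 10th to the 90th percentile of islands and black dashes mark the lowest value in the list. Isolated medians decline to 13.2 tags per kb at 6 kb and over, where the others have 26.4.

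The 10 widest isolated islands measured 9.8 to 11.4 kb and held 125 to 187 tags, at densities of up to 16.7 tags per kb. Positions are 1-based and refer to mm9, for which genes were not analysed here. Both islands of 11.4 kb lay on chromosome 15, at 85396601 to 85408000 with 169 tags and at 97650201 to 97661600 with 166 tags. The site at 85396601 was 22.8 kb from the nearest PiC H3K9me3 island, and the site at 97650201 was 81.0 kb away. An 11.2 kb island on chromosome 1 at 78189601 to 78200800 held 187 tags, and its nearest PiC H3K9me3 island was 263.4 kb away. This region stood alone in every list, with 294.4 kb to the next ESC H3K9me3 island and 209.2 kb to PiC and 209.4 kb to ESC H3K36me3.

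The other 9 of the widest islands lay at varied distances from the gene-body mark. For the chromosome 15 pair, H3K36me3 lay 93 kb away in both conditions at 85396601, and at 97650201 it lay 8.4 kb away in PiCs and 57.8 kb away in ESCs. On chromosome 9 at 58043001 to 58053600 (10.6 kb, 146 tags), H3K36me3 lay 12.4 kb away in PiCs and 11.2 kb away in ESCs. On chromosome 7 at 87523401 to 87533800 (10.4 kb, 125 tags), it lay 0.4 kb away in PiCs and 14.6 kb away in ESCs. The chromosome 7 island was thus almost reached by a PiC H3K36me3 island that the ESC list did not hold in that extent. An island on chromosome 2 at 31489801 to 31499800 (10.0 kb, 158 tags) had H3K36me3 at 14.2 kb in PiCs and 14.0 kb in ESCs. On chromosome 4, the island at 134705201 to 134715200 (10.0 kb, 158 tags) was 51.6 kb from PiC and 52.0 kb from ESC H3K36me3. On chromosome 11, the island at 118913401 to 118923400 (10.0 kb, 136 tags) was 661.8 kb from any PiC H3K9me3 island but 15.4 kb from another ESC one. Its nearest H3K36me3 lay 20 kb away in PiCs and 20.6 kb away in ESCs. The last pair were 9.8 kb wide with 125 tags each. On chromosome 5 (120877001 to 120886800), H3K36me3 was 46.4 kb away in PiCs and 47.2 kb away in ESCs. On chromosome 8 (107790801 to 107800600), it was 3 kb away in PiCs and 12.8 kb away in ESCs.

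The densest isolated islands were narrow. With at least 18 tags in every listed island, a very narrow island has a high density by arithmetic. The highest tag number and density of all 2081 belonged to chromosome 18, where an island of 1.0 kb at 40467401 to 40468400 held 199 tags. The next 4 by density were each 0.2 kb wide, the smallest width listed. They held 27 tags on chromosome 19 at 53061201, 24 on chromosome 14 at 110480001, 24 on chromosome 6 at 126491601 and 20 on chromosome 16 at 47784001. Among the islands with most tags, the chromosome 16 island at 32486201 to 32490200 (4.0 kb, 173 tags, 43.2 per kb) and the chromosome 11 island at 120220601 to 120228000 (7.4 kb, 166 tags, 22.4 per kb) were denser than the wide ones. Both had another ESC H3K9me3 island nearby, at 1.0 kb and 3.8 kb. The input library was not analysed here, so sites that gather tags without antibody could not be marked.

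From an isolated island to the nearest PiC H3K9me3 island the median gap was 63.2 kb, with a range of 10.2 to 1244.8 kb. It was between 10 and 20 kb for 323 islands (15.5%), between 20 and 50 kb for 544, between 50 and 100 kb for 457, between 100 and 200 kb for 440 and longer for 317 (15.2%). The islands just inside the rule, all with a gap of 10.2 kb, had 21.4, 12.4 and 16.7 tags per kb on chromosomes 1, 15 and 16. The first 3 just outside it, all with a gap of 10.0 kb, had 12.5, 40.0 and 36.2 tags per kb on chromosomes 1, 10 and 13.

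Tag density declined along these classes, but little once width was held. The median was 20 tags per kb at 10 to 20 kb and 16.3 beyond 200 kb, while the median width was 2.2 kb and 3.0 kb in these classes. For islands of 2 to 4 kb alone the medians were 16.7 at 10 to 20 kb and 16.2 beyond 200 kb. Set beside these, ESC islands of that width with no H3K36me3 had 17.5 tags per kb where a PiC island lay within 10 kb without overlap, and 24.6 where a PiC island overlapped. At that width the difference in density thus lay mainly between overlapped and non-overlapped islands. Over all widths near and far islands differed as well, with medians of 27.1 where a PiC island overlapped, 22.1 within 10 kb and 16.3 beyond 200 kb.

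The PiC H3K9me3 islands that came nearest were close in tag density to the PiC list as a whole. They numbered 1459 distinct islands. Counted once for each of the 2081 isolated islands, they had medians of 34.4 tags per kb and 2.6 kb. The autosomal PiC list had 33.3 tags per kb and 3.2 kb. Counted in the same way, 32.6% of the nearest PiC islands met the mirrored rule, against 30.9% of the PiC list.

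Isolated islands lay closer to H3K36me3 than the other autosomal ESC H3K9me3 islands free of that mark. The nearest H3K36me3 island of either condition lay at a median of 46.6 kb (interval 43.0 to 51.2) from isolated islands and 194.0 kb (187.8 to 201.4) from the 13361 other islands without H3K36me3 overlap. It was within 10 kb for 400 isolated islands (19.2%, interval 17.5 to 21.0), against 5.91% (5.52 to 6.33) of the others. Within 50 kb the shares were 51.8% and 22.1%. Neither set holds an island that overlaps H3K36me3, and they differ by the rule in their distance to PiC H3K9me3.

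The nearness held for the H3K36me3 lists of both conditions. The median gap from isolated islands was 50.6 kb to PiC H3K36me3 and 59.4 kb to ESC H3K36me3. The PiC island was the nearer for 1055 isolated islands and the ESC island for 774, with equal gaps for 252. The PiC H3K36me3 list is the longer of the pair, and the same order was seen in the other islands (6873 and 5091). In the 200 kb around an isolated island, H3K36me3 covered 15.2% on average in PiCs and 14.0% in ESCs. Around the other islands without overlap it covered 5.17% in PiCs and 5.01% in ESCs. No ESC H3K36me3 at all was listed in that span for 789 isolated islands (37.9%) and for 71.8% of the others. PiC islands isolated by the mirrored rule had median gaps of 271.0 kb to PiC and 332.2 kb to ESC H3K36me3. For the other ESC islands without overlap, these medians were 205.2 kb and 265 kb. The other PiC islands were not set beside them.

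**Figure D2:**
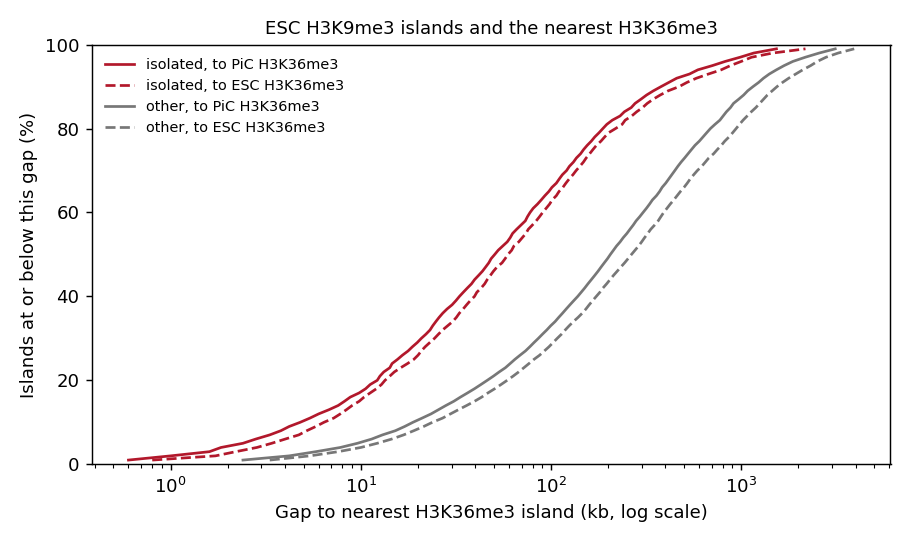
Cumulative share of islands (vertical axis, %) against the gap to the nearest H3K36me3 island (kb, log scale; 1st to 99th percentile), for isolated ESC H3K9me3 islands and for the other autosomal ones without H3K36me3 overlap; solid lines are gaps to PiC and dashed lines to ESC H3K36me3. Both isolated curves lie to the left, with medians of 50.6 and 59.4 kb.

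Over larger distances, isolated islands gathered in regions rich in H3K36me3. The autosomes were cut into 505 windows of 5 Mb and ranked in 4 classes by the share covered by ESC H3K36me3. In the poorest class (mean coverage 1.56%), 165 of 4370 ESC H3K9me3 islands were isolated, or 3.78% (interval 3.23 to 4.38). The share was 6.21% in the next class and 13.6% in the one after. In the richest class (mean coverage 19.9%) it was 21.5% (20.4 to 22.7), with 1105 of 5130 islands. Per Mb not covered by ESC H3K36me3, isolated islands numbered 0.273, 0.435, 0.990 and 2.26 from the poorest to the richest class. The other ESC H3K9me3 islands without H3K36me3 overlap numbered 6.65, 6.08, 5.31 and 5.67 per Mb in the same order. PiC islands isolated by the mirrored rule numbered 3.70, 3.47, 3.43 and 2.75 per Mb. Over the same Mb, all PiC H3K9me3 islands numbered 11.9, 11.1, 10.1 and 10.3, a count that includes those overlapping H3K36me3. The mirrored rule leaves such islands out, so these series are not like for like. The mirrored share of PiC islands was 31.2%, 31.3%, 33.8% and 26.8%, highest in the third class.

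The makeup of the isolated islands changed with the class. In the poorest class 70.9% were under 2 kb, with a median width of 1.2 kb and 27.0 tags per kb, close to the 27.3 of the other islands there. In the richest class 18.6% were under 2 kb, with a median of 3.2 kb and 16.1 tags per kb, against 25 in the others. Among isolated islands of 2 to 4 kb, the median was 16.8 tags per kb (interval 15 to 17.7) where H3K36me3 was poorest, and 16.3 (15.9 to 16.7) where it was richest. Among the others of that width it was 24.6 (24.2 to 25) in the poorest windows, and the richest windows had 22.5 (22 to 23.1). With width held, the density of isolated islands thus differed little between the classes, while that of the others was lower in the richest one.

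**Figure D3:**
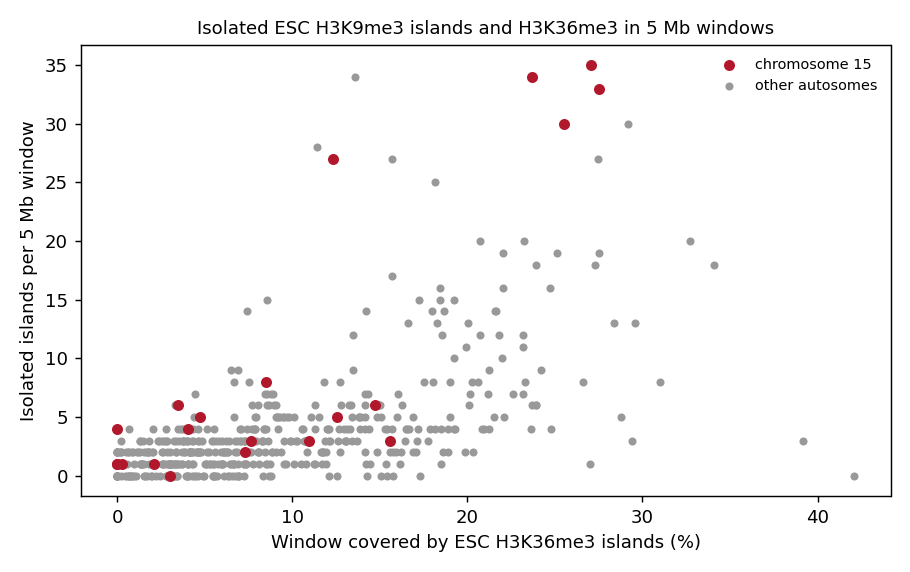
Number of isolated islands in each of the 505 autosomal windows of 5 Mb (vertical axis) against the share of the window covered by ESC H3K36me3 islands (horizontal axis, %), with windows of chromosome 15 in red. The highest window holds 35 isolated islands, and the median window holds 3.

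Isolated islands were unevenly spread among windows. A window held a median of 3 and up to 35, and 71 windows held none. The 50 windows with the most contained 43.0% of all isolated islands, while the 50 windows with the most ESC H3K9me3 islands contained 22.2% of those. The part that counting error over the smaller counts of isolated islands plays in this difference was not tested. Of the 14 windows with at least 20 isolated islands, 11 were in the richest class and 5 were on chromosome 15. The 5 highest, named by their number, included 4 on chromosome 15. The window from 80000001 to 85000000 held 35 isolated among 110 ESC islands, and 57 PiC H3K9me3 islands. The window from 100000001 to the last island at 103484800 held 34 isolated among 76 ESC islands, and 21 PiC islands. On chromosome 4 the window from 150000001 to 155000000 held 34 isolated among 62 ESC islands, the highest share of these 5 at 54.8%. It held 29 PiC islands and was in the third class, with ESC H3K36me3 over 13.6%. Across all windows, the number of isolated islands exceeded that of all PiC H3K9me3 islands in 5, and that of PiC islands meeting the mirrored rule in 53 of 505.

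In windows of 1 Mb the most isolated islands were found on chromosome 15 from 101000001 to 102000000. There, 14 of 31 ESC islands were isolated and the PiC list held 5 islands. H3K36me3 covered 14.9% of that window in PiCs and 12.1% in ESCs. The next windows held 13 each. On chromosome 1 from 74000001 to 75000000, 13 of 23 ESC islands were isolated (56.5%), with 4 PiC islands, and H3K36me3 covered 28.4% in PiCs and 37.4% in ESCs. On chromosome 10 from 80000001 to 81000000, 13 of 34 were isolated, with 4 PiC islands, and H3K36me3 covered 46.0% in PiCs and 38.4% in ESCs. The other 2 of the 5 were on chromosome 15, from 83000001 to 84000000 (13 of 26) and from 98000001 to 99000000 (12 of 33). In the same order, H3K36me3 covered 23.4% and 30.7% of them in PiCs, and 15.2% and 25.6% in ESCs.

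By chromosome, the isolated share of ESC H3K9me3 islands varied more than that of the mirrored PiC islands. It was highest on chromosome 11, with 165 of 816 islands (20.2%, interval 17.5 to 23.1), followed by chromosome 15 with 212 of 1107 (19.2%, 16.9 to 21.6) and chromosome 19 with 63 of 342 (18.4%, 14.5 to 22.9). The intervals of these 3 overlapped. It was lowest on chromosome 3, with 65 of 1157 (5.62%, 4.36 to 7.10), then chromosome 13 (6.59%) and chromosome 14 (6.90%). The median chromosome had 10.4%. Mirrored PiC shares ran from 24.9% on chromosome 15 to 37.0% on chromosome 19, with a median of 31.4%. Chromosome 15 thus had the second highest share in ESCs and the lowest in PiCs. By number per Mb, chromosome 15 led with 2.05 isolated islands, before chromosome 11 with 1.35, and chromosome 14 had 0.392.

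Across the 19 autosomes the isolated share moved with the coverage by ESC H3K36me3, which ran from 5.88% on chromosome 3 to 15.5% on chromosome 11 (Pearson's r = 0.81, Spearman's rho = 0.84). Without chromosome 15 the values were 0.86 and 0.87. For the mirrored PiC share they were -0.03 and -0.05. These are descriptions over chromosomes of the same libraries, with no test.

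**Figure D4:**
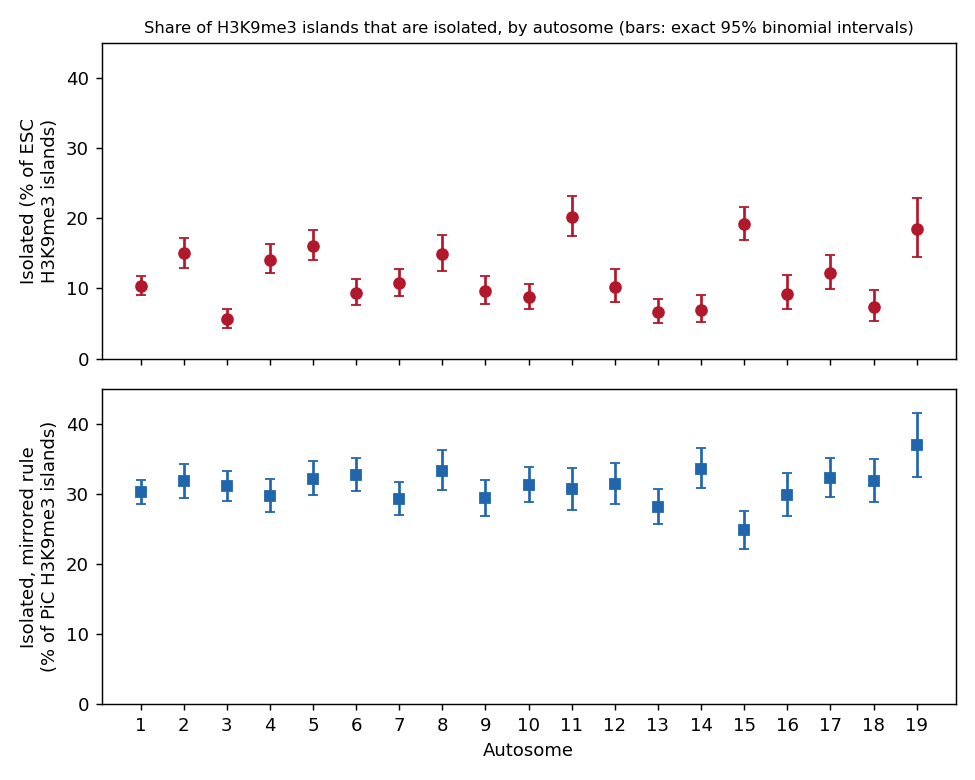
Share of H3K9me3 islands that are isolated on each autosome (vertical axes, %), for ESC islands (upper panel, red) and for PiC islands under the mirrored rule (lower panel, blue); bars are exact 95% binomial intervals. ESC shares run from 5.62% on chromosome 3 to 20.2% on chromosome 11, and PiC shares stay between 24.9% and 37.0%.

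Isolated islands became more frequent towards the distal ends of the chromosomes. Mouse autosomes have the centromere at the end where numbering starts. With each autosome cut into 10 equal parts, the isolated share of ESC islands was 4.31% (interval 3.51 to 5.22) in the part next to the centromere, where 99 of 2299 islands were isolated. It was 11.5% in the fifth part and 20.6% (18.9 to 22.4) in the last, where 433 of 2102 islands were isolated. The last part held 20.8% of all isolated islands. Mirrored PiC shares ran from 24.7% in the first part to 35.1% in the ninth and 32.2% in the last.

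**Figure D5:**
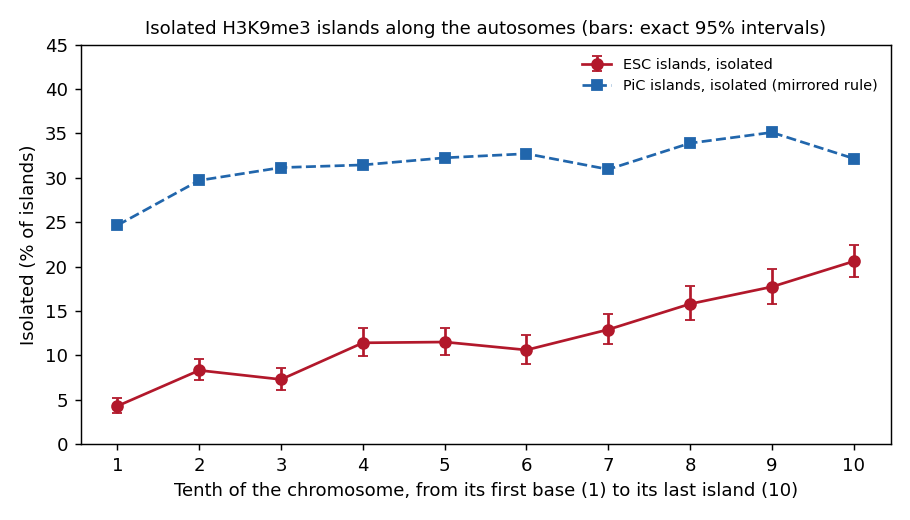
Share of H3K9me3 islands that are isolated (vertical axis, %) in 10 equal parts of the autosomes from the centromere end to the last island, for ESC islands (red, exact 95% intervals) and PiC islands under the mirrored rule (blue). The ESC share is 4.31% in the first part and 20.6% in the last.

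Isolated with respect to PiCs did not mean solitary in ESCs. The nearest other ESC H3K9me3 island lay at a median of 34.2 kb from isolated islands, against 16.0 kb for the other autosomal islands. It was within 10 kb for 416 isolated islands (19.99%), against 42.3% of the others. It was beyond 100 kb for 492 isolated islands (23.6%), against 15.0% of the others, so close neighbours were less frequent around isolated islands. For 823 isolated islands (39.5%) that neighbour was itself isolated, and for 939 (45.1%) it overlapped a PiC island. When the neighbour was within 10 kb it was isolated in 335 of 416 cases. The rule favours such pairs, because an island close to an isolated island is itself likely to be far from PiC islands.

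Joining isolated islands over gaps of up to 100 kb, with no PiC H3K9me3 island between them, gave 1566 groups. Of these, 1250 were single islands, 209 held 2 and 107 held 3 or more. The 107 groups contained 413 islands (19.8%) over a median span of 82.2 kb. They were most numerous on chromosome 15 (19), chromosome 1 (16), chromosome 11 (14) and chromosome 5 (12). These chromosomes also held the most isolated islands, with 212, 212, 165 and 185 in the same order.

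The groups with the most members were tight runs on different chromosomes. On chromosome 3, 9 isolated islands lay within 208.8 kb from 87599601 to 87808400, holding 484 tags with a median of 14.6 per kb. H3K36me3 covered 31.6% of that run in PiCs and 29.6% in ESCs. On chromosome 1, 9 lay within 186.2 kb from 74758601 to 74944800, holding 716 tags with a median of 16.2 per kb and covering 22.6% of the run, which had no H3K36me3 in either condition. On chromosome 6, 8 lay within 111.4 kb from 52154601 to 52266000, holding 346 tags at a median of 17.1 per kb, again without H3K36me3. On chromosome 19, 7 lay within 196.2 kb from 45112801 to 45309000, with H3K36me3 over 2.55% in PiCs and none in ESCs. On chromosome 15, 7 lay within 173.4 kb from 100698201 to 100871600, together with 1 ESC island that did not meet the rule. In the first 4 of these runs every ESC H3K9me3 island was isolated. Dense runs were thus found both amid H3K36me3 and in stretches that lacked it.

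Many isolated islands lay in long stretches without PiC H3K9me3. Stretches of at least 500 kb between PiC islands numbered 760 on the autosomes and held 643 isolated islands (30.9%). At least 1 isolated island was found in 39.3% of them, against 3.14% of the 8153 stretches of 20 to 100 kb. Per Mb of sequence more than 10 kb from either end, the number of isolated islands was 1.12, 0.951, 1.09 and 1.12 from the shortest to the longest of 4 classes of stretch, so longer stretches held more in proportion to their length. PiC islands isolated by the mirrored rule thinned out instead, from 7.10 to 2.50 per Mb as stretches between ESC islands lengthened. In PiC-free stretches of over 100 kb, isolated islands numbered 0.498 per Mb where ESC H3K36me3 was missing. Per Mb of sequence free of it, they numbered 1.48 where it covered up to 25% of the stretch and 2.88 where it covered 25 to 50%. Above 50% the number was 2.25 per Mb, from 51 islands.

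The most remote isolated islands lay in stretches of 1.77 to 2.58 Mb without PiC H3K9me3. The farthest, on chromosome 11 at 59777401 to 59780800 (3.4 kb, 43 tags), was 1244.8 kb from any PiC H3K9me3 island and 0.4 kb from H3K36me3 in both conditions. Another on chromosome 11 at 60288201 to 60293800 (5.6 kb, 76 tags) was 814.0 kb away in the same 2.58 Mb stretch. That stretch held 5 ESC H3K9me3 islands, 3 of them isolated, and H3K36me3 covered 25.3% of it in both conditions. On chromosome 8 the island at 113597001 to 113599400 (2.4 kb, 41 tags) was 1028.2 kb from PiC H3K9me3, in a 2.12 Mb stretch with H3K36me3 over 37.5% in PiCs and 37.0% in ESCs. On chromosome 19 the island at 47244801 to 47248200 (3.4 kb, 66 tags) was 1015.8 kb away. The fifth, on chromosome 15 at 102563201 to 102569600 (6.4 kb, 116 tags), was 813.2 kb away in a 1.77 Mb stretch with 23 ESC islands, of which 15 were isolated. All 5 stood in regions where H3K36me3 covered 25.3 to 37.5% in PiCs and 25.3 to 37.0% in ESCs.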

How the data were processed

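Each deposited list belonged to 1 library and held a position and a whole number for each island. Islands were called with SICER on mm9 per the submitters' processing notes. The deposited whole number was read as a count of tags, not scaled to library size. For the aligner, the SICER version and settings, duplicate removal and any input control, the processing was not given in the sources used here. Depth is unknown, since counts cover called islands only. For H3K36me3 they summed to 15787192 tags in PiCs and 26055650 in ESCs.

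Column 3 plus 1 gave the end on the 200 bp grid. Gaps are bases between islands, and a gap of exactly 10 kb counted as within 10 kb. Python 3.11.15, numpy 2.4.6, pandas 2.3.3 and scipy 1.17.1 were used. Overlap functions were tested on simulated lists. Shares carry exact (Clopper-Pearson) and medians order-statistic 95% intervals, for counting error over islands alone. PCR copies are not independent molecules. No p-value was computed. Alternatives changed the distance, the H3K36me3 step, the lists, widths, ends and windows. The members, lists and region rules were chosen with earlier results of these data known. Regions named were the widest, the richest in tags and tag density, the farthest from PiC H3K9me3, those at the 10 kb limit, and the windows and runs with most members. Gene comparisons planned for an mm9 annotation, and their gene lists, were not made.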

Additional observations from a re-analysis of the deposited data

Results flagged for a closer look

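Chromosome X was outside the autosomal set. Of its 742 ESC H3K9me3 islands, 58 met the rule in every other respect (7.82%, exact interval 5.99 to 9.99). The share on the autosomes was higher, at 11.8%. The median density of these 58 islands was 22.2 tags per kb, and that of the other islands of the chromosome was 21.3. In the mirrored direction 578 of 1361 PiC islands of chromosome X met the rule (42.5%), against 30.9% on the autosomes. On chromosome Y 3 of 25 ESC islands met it.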

How the results depend on the processing

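No paired analysis was possible because no group had a second library, so no replicate could be left out either. As reported, chromosome 15 held 10.2% of the isolated islands, as did chromosome 1, and the richest 5 Mb windows held 53.1%. Of the 17697 autosomal ESC islands, 1107 were on chromosome 15 and 5130 in the richest windows. Isolated islands had a lower median tag density than the other islands in all 12 settings, and 44 of 77 values stayed within the interval of the reported value (for the number of islands, within 1.5 times). With the PiC list reduced to the length of the ESC list by tags, 3456 islands were isolated (19.5%), with 20.6 tags per kb, a median width of 2.0 kb, 8.71% on chromosome 15 and 41.8% in the richest 5 Mb windows. With the 50% of ESC islands that had most tags, 479 were isolated (5.34%), with 15.3 tags per kb against 27.9 in the others, 4.8 kb, 15.4% on chromosome 15 and 69.5% in the richest windows. Without the H3K36me3 step, 17.2% were isolated, with 16.5 tags per kb against 27.1, 3.0 kb, 12.9% and 59.9% in the same order. With no H3K36me3 within 10 kb, 9.50% were isolated, with 18.3 tags per kb, 2.4 kb and 48.5% in the richest windows. With islands of at least 2 kb, the density was 15.4 against 24.1 tags per kb, the width 3.4 kb and the richest windows held 62.9%. The isolated share was 13.1% with a distance of 5 kb, 9.93% with 20 kb, 12.3% with islands joined over 2 kb (25.9 tags per kb in the others) and 11.3% without chromosome 15. With column 3 itself as the end the median width was 2.599 kb. Not counting a gap of exactly 10 kb as within the limit, a setting added after the data had been seen, gave 2087 islands. How far the number of tags in each library sets which islands were listed was not tested.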

Other observations

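Single-window islands, the narrowest that could be listed at 0.2 kb, were as rare among isolated islands as among others. There were 7 of 2081 isolated islands (0.336%), with 18 to 27 tags, and 45 of 15616 others (0.288%), with 18 to 54 tags. In 4 cases an isolated island touched an H3K36me3 island without sharing a base.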
